A study of Mus musculus with 12 samples.

Results

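The genes described here are 10 members of the Bcl2 family, which hold the balance between survival and death of a cell. They were chosen by name and looked up by symbol or alias in the annotation of the array, and 9 of the 10 carried a symbol of their own there, out of 18193 genes measured in the series. They fall into 3 roles. Bcl2, Bcl2l1 (Bcl-xL), Bcl2l2 (Bcl-w) and Mcl1 protect the cell, Bak1 is an effector, and Bid, Bcl2l11 (Bim), Bbc3 (Puma) and Pmaip1 (Noxa) are death signals known as BH3-only proteins. Bax, the other classical effector, was not analysed here. Where several probe sets, the groups of short probes that read a transcript, carried the symbol of 1 member, the probe set with the highest mean log2 level over the 12 arrays stood for the gene, and the other probe sets of the 31 in all served as a check.

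The cells were macrophages grown with macrophage colony-stimulating factor (M-CSF) from bone marrow of C57Bl/6 mice, and the labels give A, B and C as the biological replicates of each of 4 groups, 3 arrays a group. Lipopolysaccharide (LPS), the outer membrane component of Gram-negative bacteria that Toll-like receptor TLR4 senses, was given at 100 ng/ml at each step where it was given. The untreated group had no LPS at either step, and the group called LPS once had it only at the second step. The pretreated group had LPS for 18 h, then new medium and a rest of 2 h, and none afterwards. The restimulated group had the same 18 h of LPS, new medium and rest, and then LPS again. All groups went through the medium change and the rest, and no genotype or allele beyond the strain was named. The length of the last stimulation is unknown from the sources at hand. The design addresses how earlier exposure to LPS alters the response to a later one.

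Bcl2 proteins meet at the outer membrane of the mitochondrion. The effectors Bax and Bak open pores that release cytochrome c and start the caspase cascade, the protective members bind and restrain them, and BH3-only proteins raise the death signal by occupying the protective members or by activating the effectors directly. Mcl1 is a short-lived protein, Bcl2l11 can be induced by forkhead factors of the Foxo group, and Pmaip1 and Bbc3 are known targets of p53. In macrophages, LPS engages survival signals through NF-kappaB alongside signals that can lead to death. An array reads transcripts, and much of the control of this family, that of Mcl1 and Bid above all, acts on the protein.

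Stretches upstream of transcription starts are shown for Bcl2l11 and Bbc3 because they held the only forkhead matches among the 8 members searched. The forkhead gene Foxo3 was also among the genes whose level changed. RefSeq windows of 250 bases before each annotated start, on build GRCm38.p6, were searched for 8 of the 9 measured members (13 windows). Pmaip1 was left out of this search, so it is unknown here whether its window holds any of the motifs. The forkhead motif GTAAACA was sought on both strands and was present in 2 of these 13 windows, against 3.17% of all 32851 windows in the RefSeq table. Bcl2l11 had 2 windows, and the second held no match. The first, at chr2:128125788-128126037 on the plus strand, holds the motif at position -227 from its start, in capitals here.
Bcl2l11 window 1: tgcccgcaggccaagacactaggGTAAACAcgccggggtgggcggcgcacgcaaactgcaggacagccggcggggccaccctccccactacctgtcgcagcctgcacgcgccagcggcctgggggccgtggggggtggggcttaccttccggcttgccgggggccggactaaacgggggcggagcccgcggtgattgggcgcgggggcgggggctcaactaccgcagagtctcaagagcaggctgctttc
In Bbc3 the match lay on the opposite strand, at position -167 from the second of its 3 annotated starts, at chr7:16310084-16310110. The matches are set side by side with 10 bases on each side, both written along the plus strand with the motif or its complement in capitals.
Bcl2l11: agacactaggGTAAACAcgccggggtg
Bbc3: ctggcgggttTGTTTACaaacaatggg
An NF-kappaB-like motif, GGNNNTTCC on both strands, was present in 6 of the 13 member windows and in 15.66% of all windows. Those 6 windows belonged to Bcl2l1, Mcl1, Bak1, Bcl2l2 and Bbc3, the last with 2. A STAT-like motif, TTCNNNGAA, was in 0 of the 13 member windows and in 7.02% of all windows. These matches describe letters in a window and not binding.

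The restimulated C array stood apart before any comparison. It had a mean intensity of 246.7, where the other 11 had 310.0 to 317.0, and a 75th percentile of 119.9, where they had 156.1 to 207.0. Differences that use the restimulated group are therefore followed by their value without it. Markers placed the cells as labelled, since the summed intensity of the 8 measured macrophage markers lay between 55480 and 65194 on all 12 arrays. Markers of fibroblasts and stroma (5 genes) summed to 2388 to 5139 on the A arrays, 4845 to 8006 on the B arrays and 202 to 284 on the C arrays, and those of neutrophils and their precursors (7 genes) to 410 to 469, 1744 to 3381 and 603 to 981. These sums moved with the letter in every group, and their part in the spread between replicates was not tested. The neutrophil markers did not share in their sum alike. Elane, Mpo and Prtn3 read at most 31.8, 33.7 and 38.6 on any array. The highest values were 3000 for Mmp8, 959 for Ngp, 251 for Ltf and 218 for Camp. Sums for T cells, B cells, natural killer cells, dendritic cells, erythroid cells and mast cells stayed between 67.6 and 455.4. In bulk RNA, fewer cells of a type and less RNA per cell cannot be told apart. Genes of other organs gave a measure of background, with a median of 24.0 and a 90th percentile of 73.7 over 10 genes and 12 arrays.

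Of the 9 measured members, 2 passed the rule for a call in at least 1 comparison, both of them BH3-only genes: Bcl2l11 and Pmaip1. A gene was called when its Benjamini-Hochberg adjusted p from limma, a linear model with a moderated spread, was under 0.05 over all 18193 genes and its difference was at least 2-fold on the log2(intensity + 16) scale. With a first dose of LPS (LPS once against untreated), 1 of 9 members was called, against 13.0% of all genes, so the family's share was near that of the array. After pretreatment alone (pretreated against untreated), 1 of 9 was called, against 0.599% of all genes. In the second response (restimulated against pretreated), 1 of 9 was called, against 1.95%, and in the difference between the second and the first response (the interaction), 1 of 9, against 2.67%. For the level after LPS (restimulated against LPS once), 1 of 9 was called, against 5.66%. All 5 calls were in the lower direction, and with counts of 1 they describe those genes rather than the family. Without the restimulated C array the counts were 1, 1, 0, 1 and 1. With no fold minimum the same comparisons called 2, 1, 1, 1 and 1 members, against 33.3%, 0.912%, 4.03%, 3.86% and 14.6% of all genes. The median log2 difference of the 9 members was 0.03, 0.01, -0.26, -0.27 and -0.34 in that order, beside 0.04, 0.02, -0.02, -0.02 and -0.00 for all genes. Without the restimulated C array the last 3 of the members' medians were -0.07, -0.20 and -0.11. Setting all arrays to the same 75th percentile moved the median of all genes to 0.21 in the first and 0.14 in the second response. Under each scaling tried, the differences of Bcl2l11 and Pmaip1 that were called kept their direction, although 2 of the 5 calls were lost (the first response of Pmaip1 and the second of Bcl2l11). These comparisons share groups, so their values are set side by side and not as independent evidence.

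**Figure D1:**
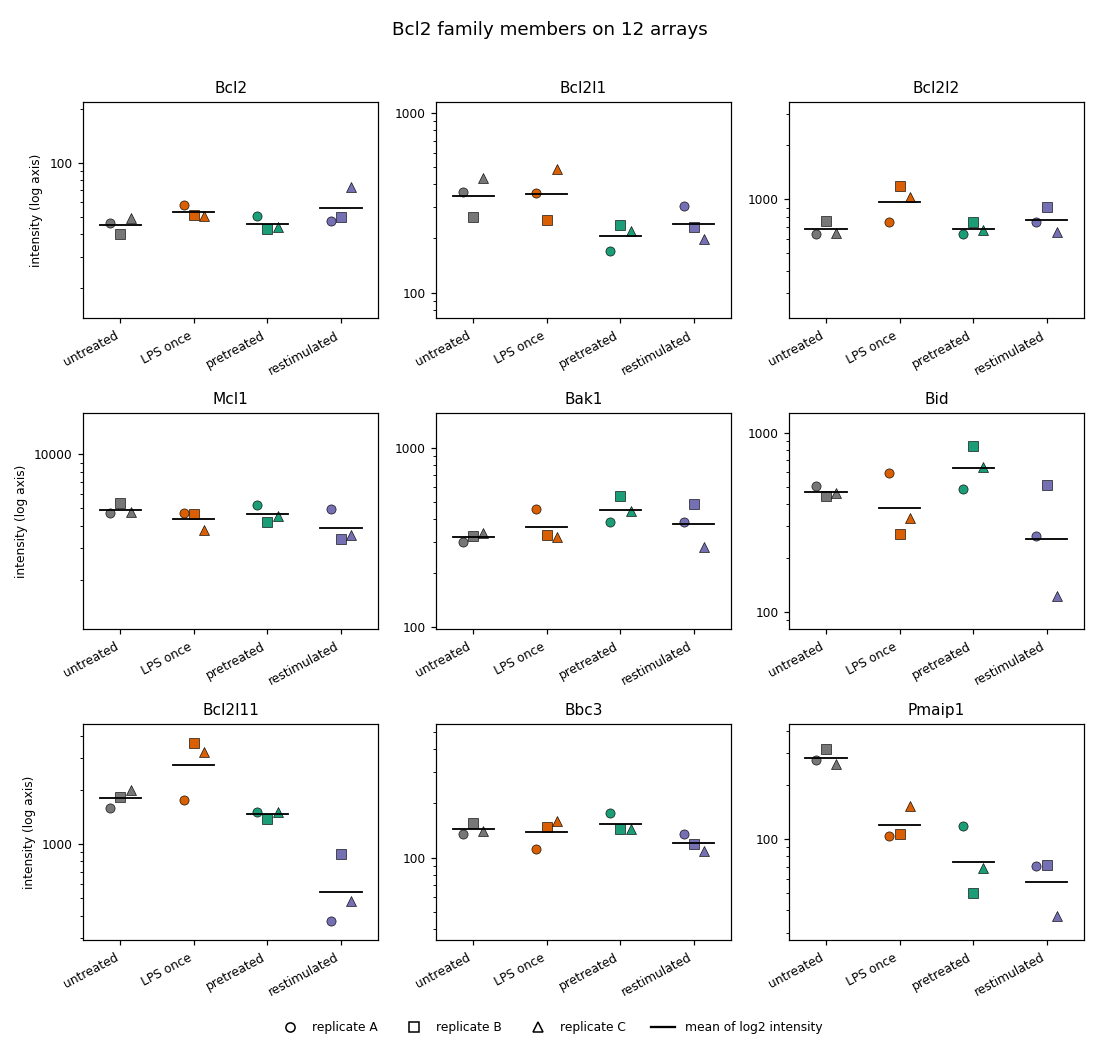
Intensity of the 9 measured members on each of the 12 arrays, on a log axis, with 1 panel per gene. Points are arrays, the shape gives the replicate letter and the bar is the mean of the log2 intensities of a group; Bcl2l11 lay lowest in the restimulated group (374 to 875) and Pmaip1 highest in the untreated group (259 to 316).

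The protective members showed no call at 2-fold in any comparison. Mcl1, a protector that binds Bak and most BH3-only proteins, had intensities of 4697, 5324 and 4769 on the untreated arrays A, B and C, 4683, 4658 and 3778 after LPS once, 5246, 4211 and 4546 after pretreatment, and 4966, 3377 and 3566 after restimulation. The lowest untreated array, A, lay just above the highest LPS-once array, and the restimulated group overlapped with every other. Its log2 difference was -0.18 ± 0.15 (SE) in the first response and -0.25 ± 0.15 in the second, with 95% intervals from -0.52 to 0.16 and from -0.59 to 0.09, which leave out a 2-fold change in either direction. The second response was -0.18 without the restimulated C array. The 5 other probe sets of Mcl1 gave first responses from -0.08 to 0.72, none past the threshold over the 34945 single-symbol probe sets. Without the restimulated C array, those at 0.72 and 0.32 passed it (limma adjusted p = 0.0109 and 0.0191), both under 2-fold. The one at 0.72 ± 0.26 (limma adjusted p = 0.0653) was the only one of the 6 whose estimate exceeded 0.5, so the gene's transcripts were not read alike by all of its probe sets.

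Bcl2l1, whose main product Bcl-xL guards the mitochondrion, was the protective member with the largest difference after pretreatment. It read 362, 263 and 434 on the untreated arrays, 359, 253 and 486 after LPS once, 170, 238 and 220 after pretreatment and 302, 231 and 199 after restimulation. Every pretreated array lay below every untreated one, and the pretreated array was lower under all 3 letters. The log2 difference was -0.70 ± 0.26, with a 95% interval from -1.27 to -0.13, and it missed the threshold over all genes (limma adjusted p = 0.300). In the first response it was 0.03 ± 0.26, and in both groups of that comparison the B array read lowest and the C array highest. The 3 other probe sets of Bcl2l1 had mean intensities of 12.8 to 25.3, in the range of background, with differences of at most 0.25 in size in every comparison.

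Bcl2l2, which encodes the protector Bcl-w, rose in the first response by less than 2-fold. Its intensities were 641, 755 and 652 on the untreated arrays, 745, 1185 and 1037 after LPS once, 638, 749 and 673 after pretreatment and 746, 912 and 661 after restimulation. The LPS-once array was higher under each of the 3 letters, although its lowest array was below the highest untreated one. The log2 difference was 0.50 ± 0.17 (1.42-fold, limma adjusted p = 0.0452), which passes only the rule with no fold minimum, and the adjusted p ranged from 0.00315 to 0.148 over the alternatives. In the second response the difference was 0.16 ± 0.17, and the test of second against first gave -0.34 ± 0.24 (adjusted p = 0.536), with an interval from -0.88 to 0.19. Leaving out restimulated C gave 0.26 (adjusted p = 0.604) and -0.24 (adjusted p = 0.592). Over the 34945 single-symbol probe sets, the first response of this probe set had a limma adjusted p of 0.0503. The other probe sets of Bcl2l2, with mean intensities of 21.4 to 41.4, in the range of background, gave first responses of 0.04 to 0.17. Of these, the dimmest passed the threshold, at 0.16 (adjusted p = 0.0391).

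Bcl2, the founding member, was read near background. Its intensities ran from 40.2 to 58.2 on the untreated and LPS-once arrays, from 42.6 to 50.3 on the pretreated arrays, and were 47.4, 49.5 and 73.3 on the restimulated arrays. The highest value belonged to the restimulated C array. All values lay within the range of the organ genes, so that its log2 differences, from 0.01 to 0.23 over the 5 comparisons, describe a signal near background. Without the restimulated C array the second response went from 0.23 to 0.07, the interaction from 0.05 to -0.11 and the level after LPS from 0.06 to -0.10. Of 4 other, dimmer probe sets, the brightest, with a mean intensity of 39.2, gave -0.75 ± 0.26 in the first response and -0.85 ± 0.26 after pretreatment (limma adjusted p = 0.0530 and 0.226 over the probe sets). The next, with a mean intensity of 23.2, gave -0.49 ± 0.11 in the first response (adjusted p = 0.00969). These were opposite in sign to the 0.18 ± 0.13 in the first response of the one that stood for the gene.

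Bak1, the pore-forming effector that was measured, was not called in any comparison. It read 299, 323 and 336 on the untreated arrays, 453, 326 and 318 after LPS once, 383, 539 and 447 after pretreatment and 387, 484 and 281 after restimulation. All 3 pretreated arrays exceeded all 3 untreated ones. The log2 difference of 0.48 ± 0.20 (1.40-fold) had a 95% interval from 0.03 to 0.93 and an adjusted p of 0.375 by limma. In the second response the estimate was -0.26 ± 0.20, with the pretreated and restimulated arrays overlapping, and it was -0.06 without the restimulated C array (adjusted p = 0.951).

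Among the BH3-only genes, Bcl2l11 (Bim), a direct activator of the effectors that also binds all protective members, was lower in restimulated cells. Its intensities were 1587, 1837 and 2009 on the untreated arrays and 1748, 3629 and 3264 after LPS once. They were 1506, 1373 and 1512 after pretreatment and 374, 875 and 481 after restimulation. All 3 restimulated arrays lay below the other 9, while the untreated and LPS-once arrays overlapped through the A array of the latter. After the last LPS step, restimulated cells had a level 4.96-fold below that of cells that met LPS once, a log2 difference of -2.31 ± 0.32 (limma adjusted p = 0.00141). The difference was -2.18 under letter A, -2.03 under B and -2.72 under C. Without the restimulated C array it was -2.23 (adjusted p = 0.00383), and this call remained under each of the alternatives tried.

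The responses that make up this gap were less firmly measured. In naive cells, the first dose moved Bcl2l11 by 0.60 ± 0.32 on the log2 scale (adjusted p = 0.177 by limma), with letters at 0.14, 0.98 and 0.70. In pretreated cells it fell by 1.41 ± 0.32 with the second dose, or 2.65-fold (adjusted p = 0.0421), and the letters gave -1.97, -0.64 and -1.62. The test of the difference between these responses gave -2.01 ± 0.45 (adjusted p = 0.0411), with a 95% interval from -3.02 to -1.0. Pretreatment alone gave -0.30 ± 0.32 (adjusted p = 0.817). Each of these estimates kept its sign when any array was left out, but calls near the threshold did not stay. The second response lost its call without the restimulated C array (-1.33, adjusted p = 0.120), without restimulated A (-1.15, adjusted p = 0.0973), and without any 1 of the 3 untreated, the 3 pretreated or the LPS-once B and C arrays (adjusted p from 0.0513 to 0.154). The interaction kept its call without restimulated C (-1.93, adjusted p = 0.0477). It lost it without restimulated A (-1.75, adjusted p = 0.0678) or without any 1 of the same 8 arrays of the other groups (adjusted p from 0.0800 to 0.103).

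Bcl2l11 was read by 5 probe sets, and they did not respond alike. For the level after LPS all 5 were lower in restimulated cells, with log2 differences from -2.57 to -2.31 and limma adjusted p-values of at most 0.0103 over the 34945 probe sets. With restimulated C left out these ran from -2.27 to -2.05, with adjusted p-values of at most 0.0191. The dimmest of them, 1426334_a_at, read 52.7, 51.5 and 74.4 on the untreated arrays, 353, 610 and 504 after LPS once, 49.9, 80.4 and 57.1 after pretreatment and 62.8, 117 and 56.6 after restimulation. Here the LPS-once arrays stood above all 9 others. Those 9 lay around the 90th percentile of the organ genes, 73.7. A fall below the untreated level could hardly be read there, and the size of a rise from it is not exact. This probe set rose by 2.72 ± 0.27 in the first response (adjusted p = 1.03e-04) and by 0.24 ± 0.27 in the second (adjusted p = 0.688), and its second minus first response was -2.48 ± 0.38 (adjusted p = 0.0112), or -2.32 without the restimulated C array (adjusted p = 0.0120). The 4 other probe sets had first responses of 0.56 to 1.03, none past the threshold. Without the restimulated C array, 1456006_at passed it (1.02, limma adjusted p = 0.0441). Their second minus first responses were -2.25 to -2.01, none past it (adjusted p from 0.0505 to 0.156). Without that array, 1456005_a_at passed (-1.88, adjusted p = 0.0457). The probe set that stood for the gene, 1435448_at, had adjusted p = 0.0505 in this test and 0.0530 in the second response. Their second responses were -1.67 to -1.21, of which 1 passed (adjusted p = 0.0476). When restimulated C was left out, those second responses were -1.33 to -0.76, and none passed (adjusted p from 0.102 to 0.570). In 1426334_a_at the gap after LPS lay between high LPS-once arrays and restimulated arrays near the untreated level, and in the 4 others the restimulated means also lay below the untreated means. Whether the probe sets read different transcript forms was not tested.

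**Figure D2:**
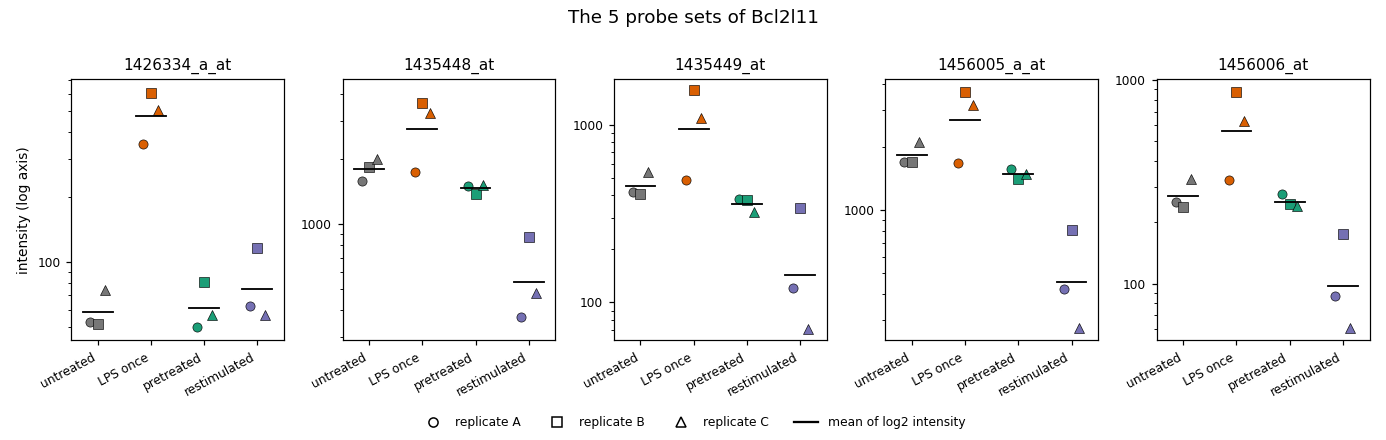
Intensity of the 5 probe sets of Bcl2l11 on the 12 arrays, on log axes, with replicate letters as shapes and the mean of log2 intensities as bars. In 1426334_a_at the LPS-once arrays (353 to 610) stand above the rest, while in the other 4 the restimulated means lie below those of the other groups.

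Pmaip1 (Noxa), a BH3-only protein that mainly occupies Mcl1, was highest in cells that had met no LPS. It read 273, 316 and 259 on the untreated arrays, 103, 107 and 152 after LPS once, 118, 50.1 and 68.8 after pretreatment and 70.2, 71.4 and 37.4 after restimulation. The untreated arrays stood above all 9 others without overlap. In the first response Pmaip1 fell by 1.14 ± 0.27 on the log2 scale (2.20-fold lower, limma adjusted p = 0.00984), with letters at -1.27, -1.44 and -0.71. The difference fell short of 2-fold at -0.91 with log2(intensity + 64), -0.87 with quantile normalization and -0.85 with arrays set to the same 75th percentile, while its adjusted p stayed between 0.00503 and 0.0320.

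Pretreated cells, which had had 18 h of LPS followed by new medium, also had less Pmaip1 than untreated cells, with a difference of -1.71 ± 0.27 or 3.27-fold (limma adjusted p = 0.0200). The letters gave -1.11, -2.33 and -1.70. This call was lost without any 1 of the untreated A, B and C or the pretreated B and C arrays, with estimates from -1.77 to -1.48 and adjusted p-values from 0.0619 to 0.0893. The second dose changed the level by -0.30 ± 0.27 (adjusted p = 0.565), or by -0.07 without the restimulated C array. The test of second against first response gave 0.84 ± 0.39 (adjusted p = 0.299), with an interval from -0.02 to 1.70. It gave 1.07 without that array (adjusted p = 0.103), so a difference between the responses was not called. Restimulated cells differed from cells given LPS once by -0.87 ± 0.27 (adjusted p = 0.0607), by -0.64 without that array, and by -1.0 with quantile normalization, which passed (adjusted p = 0.0254). Several of these arrays lay under the 90th percentile of the organ genes, 73.7, so the size of the drop may be understated. Pmaip1 had 1 probe set, so no other probe set could check it.

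Bid, which links death receptors to the mitochondrion once caspase-8 has cut it, had the largest standard error of the 9 members. Its intensities were 505, 444 and 461 on the untreated arrays, 596, 273 and 336 after LPS once, 484, 840 and 640 after pretreatment and 267, 509 and 123 after restimulation. The highest and the lowest value of the LPS-once group lay on either side of all untreated values. The second response was -1.26 ± 0.44 (limma adjusted p = 0.147), lower under all 3 letters, and it was -0.77 without the restimulated C array (adjusted p = 0.373) and -1.73 without restimulated B (adjusted p = 0.0297), so that 1 array decided on which side of the threshold it fell. Another probe set, with a mean intensity of 136, gave -0.64 ± 0.32, or -0.34 without restimulated C.

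Bbc3 (Puma), a p53 target that binds every protective member, stayed within a narrow range. It read 135, 155 and 141 on the untreated arrays, 112, 147 and 160 after LPS once, 176, 145 and 144 after pretreatment and 135, 119 and 109 after restimulation. All restimulated arrays lay below all pretreated ones. The log2 difference between them was -0.32 ± 0.13 (1.25-fold lower, limma adjusted p = 0.201), with an interval from -0.60 to -0.03, and it was -0.25 without the restimulated C array (adjusted p = 0.473). In the first response it was -0.05 ± 0.13, and the interval from -0.34 to 0.24 leaves out a 2-fold change.

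**Figure D3:**
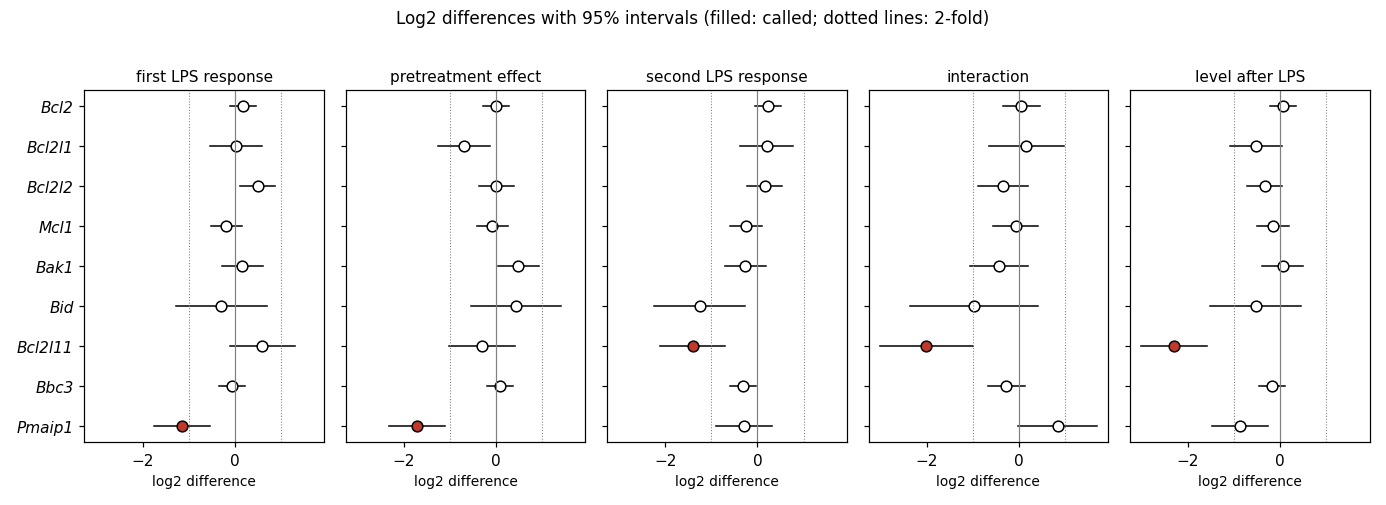
Log2 differences of the 9 members in the 5 comparisons, as points with 95% intervals, filled where a member was called, and with dotted lines at a 2-fold change. Only Pmaip1 (-1.14 and -1.71) and Bcl2l11 (-1.41, -2.01 and -2.31) are filled, and the widest intervals belong to Bid.

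The wider pathway was read from 8 lists holding 72 measured genes. In the first response 9 of the 72 were called higher and 13 lower, against 3.9% of all genes higher and 9.1% lower, 13.0% in all. In the second response 3 were higher and 4 lower, against 1.95%, and 4 of these 7 calls (Traf1, Foxo3, Tnfrsf21 and Trp53inp1) were lost without the restimulated C array. After pretreatment alone 0 were called by limma, with 13 at an unadjusted p under 0.05, against 0.599% of all genes. The test of second against first response called 3 higher and 4 lower, against 2.67%, and the level after LPS 6 higher and 2 lower, against 5.66%.

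Of 11 other measured Bcl2 family genes, 1 was called in the first response and lower, against 9.1% of all genes: Bmf, a BH3-only gene known from death after loss of attachment. Bmf read 407, 541 and 537 on the untreated arrays, 17.2, 22.0 and 23.5 after LPS once, 515, 393 and 667 after pretreatment and 93.2, 86.4 and 60.8 after restimulation. The LPS-once arrays lay below the background median of 24.0, and the restimulated ones, above them without overlap, lay around its 90th percentile of 73.7. Differences that use the LPS-once arrays therefore compare with a signal in the range of background, and their sizes are not exact. Its log2 difference was -3.78 ± 0.20 in the first response (limma adjusted p = 4.25e-06) and -2.48 ± 0.20 in the second (adjusted p = 7.34e-04). The restimulated level was 1.37 ± 0.20 above that after LPS once (adjusted p = 0.00187), the opposite direction to Bcl2l11. Without the restimulated C array the second response was -2.32 and the level difference 1.52. The second minus first response, 1.31 ± 0.28 (adjusted p = 0.0362), passed without a block but not with the replicate letter as a block (adjusted p = 0.0535), nor without any 1 of 9 arrays (all but untreated A, pretreated C and restimulated C; adjusted p up to 0.0983). These values rest on 1 probe set, as the 2 other Bmf probe sets had mean intensities of 15.0 and 30.6 and first responses of -0.01 and 0.23. Bnip3, a mitophagy receptor of the family, had 0.97 ± 0.39 in the first response (adjusted p = 0.0801). The median of this list was 0.23 in the first response, beside 0.04 for all genes.

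The transcription factors known to act on BH3-only genes had 1 of 9 called higher and 3 lower in the first response, against 3.9% and 9.1% of all genes. Foxo3, a forkhead factor that induces Bcl2l11 in other settings, read 827, 877 and 834 on the untreated arrays, 104, 197 and 99.2 after LPS once, 1069, 640 and 987 after pretreatment and 335, 370 and 241 after restimulation. Arrays with a last LPS step lay below all arrays without one. The log2 difference was -2.59 ± 0.26 in the first response (limma adjusted p = 8.94e-05) and -1.45 ± 0.26 in the second (adjusted p = 0.0195), the latter -1.28 without the restimulated C array (adjusted p = 0.0616). The Foxo3 transcript was low in the LPS-once and restimulated groups, where Bcl2l11 was at its highest and its lowest. Whether Foxo3 acted on Bcl2l11 in these cells was not tested. Foxo4 fell by 1.35 ± 0.18 and Jun by 1.61 ± 0.52 in the first response, and Atf4, a factor of the stress response, rose by 1.16 ± 0.40 (adjusted p = 0.0475, and 0.0515 without the restimulated C array). Several of these calls rest on single arrays. That of Foxo3 in the second response was also lost without pretreated A or C, that of Jun without any 1 of 6 arrays (untreated A, B or C, LPS-once A or C, pretreated C; adjusted p up to 0.134), and that of Atf4 without any 1 of 7 (untreated A, B or C, LPS-once B or C, pretreated C, restimulated C; adjusted p up to 0.150).

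Inhibitors of apoptosis had 2 of 8 called higher and 1 lower in the first response, where all genes had 3.9% and 9.1%. Birc3 (cIAP2) rose by 1.70 ± 0.18 in the first and by 1.17 ± 0.18 in the second response (limma adjusted p = 1.01e-04 and 0.0105). Birc2 (cIAP1), a ubiquitin ligase of the same receptor complexes, read 281, 298 and 285 on the untreated arrays, 710, 672 and 783 after LPS once, 317, 243 and 299 after pretreatment and 361, 281 and 182 after restimulation. It rose by 1.28 ± 0.20 in the first response (adjusted p = 9.34e-04). The second minus first response was -1.38 ± 0.28 (adjusted p = 0.0285), so that Birc2, like Bcl2l11, had a lower level after LPS in pretreated cells, by -1.39 ± 0.20 (adjusted p = 0.00160). Without the restimulated C array these were -1.12 and -1.14, both still called, and the second response of Birc3 was 1.18. The interaction of Birc2 lost its call without any 1 of 8 arrays (untreated A, B or C, LPS-once B or C, pretreated A or C, restimulated B; adjusted p up to 0.0773), and the second response of Birc3 without pretreated A. Naip5, a flagellin sensor of the inflammasome, fell by 1.66 ± 0.42 in the first response (adjusted p = 0.0129), and the call was lost without LPS-once C (adjusted p = 0.0516).

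Caspases and the apoptosome had 4 of 9 called lower and 0 higher in the first response, beside 9.1% of all genes lower and 3.9% higher. Casp9, the initiator caspase of the mitochondrial route, fell by 2.45 ± 0.21 (limma adjusted p = 3.56e-05), from 369 to 441 on the untreated arrays to 55.5 to 65.7 after LPS once. Restimulated arrays kept 136 to 276, and the level after LPS was higher there by 1.58 ± 0.21 (adjusted p = 0.00110), or by 1.88 without the restimulated C array (adjusted p = 1.87e-05). With the median of all probe sets of the gene, Casp9 changed by -0.12 in the first response, since its 2 other probe sets, with mean intensities of 55.6 and 75.2, gave -0.01 and 0.19. Casp2 fell by 2.20 ± 0.35, and Htra2 and Aifm1, mitochondrial proteins released in death, by 1.16 ± 0.34 and 1.01 ± 0.21. The call of Htra2 was lost without any 1 of the untreated arrays or LPS-once B or C, and that of Aifm1 without untreated B or C or LPS-once B or C. In the second response Casp2 had -1.34 ± 0.35 (adjusted p = 0.0675, and 0.0308 with the replicate letter as a block), or -1.07 without the restimulated C array (adjusted p = 0.193).

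Death receptors and their adaptors had 5 of 14 called higher and 1 lower in the first response, with 3.9% and 9.1% of all genes called so. Traf1, an adaptor of survival signalling, rose by 5.11 ± 0.49, the death receptor Fas by 3.03 ± 0.36, and Cflar, whose product c-FLIP restrains caspase-8, by 2.44 ± 0.15. The receptor Tnfrsf21 fell by 2.18 ± 0.34. In the second response Traf1 rose by 2.71 ± 0.49 (limma adjusted p = 0.0195, 0.0573 without the restimulated C array, and lost too without pretreated A or C) and Cflar by 1.37 ± 0.15 (adjusted p = 0.00313), or 1.52 without that array. The response of Cflar was smaller in pretreated cells by -1.07 ± 0.21 (adjusted p = 0.0239), or -0.93 without the restimulated C array, under 2-fold. That call was lost too without any 1 of the untreated A, B or C, LPS-once B or C or pretreated A or B arrays (adjusted p up to 0.0660).

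Other p53 target genes had 2 of 12 called higher and 3 lower in the first response, against 3.9% and 9.1% over the array. Sesn1, a stress-induced regulator of growth signalling, fell by 5.33 ± 0.44 and Trp53inp1 fell by 3.65 ± 0.37, whereas the cell cycle inhibitor Cdkn1a rose by 2.19 ± 0.25 (limma adjusted p from 3.01e-05 to 1.72e-04). Sesn1 was 3.48 ± 0.44 higher after LPS in pretreated cells (adjusted p = 8.77e-04), and Cdkn1a was lower by -1.93 ± 0.25 (adjusted p = 0.00104), values of 3.52 and -1.74 without the restimulated C array. These targets did not move in 1 direction, and Pmaip1 and Bbc3, targets of the same factor, had first responses of -1.14 and -0.05. Trp53 itself was not among the measured genes, and the part of p53 in these changes was not tested. Of 6 measured factors that act on Mcl1 protein, 0 were called in the first response, with 3 at an unadjusted p under 0.05 by limma. Among them Fbxw7, which marks Mcl1 for destruction, had -0.88 ± 0.16 (adjusted p = 0.00253) and Rnf5 -0.82 ± 0.17 (adjusted p = 0.00530), both under 2-fold. Of 5 mitochondrial outer membrane channels 0 were called there, with 1 at an unadjusted p under 0.05. In that list Tspo had 1.28 ± 0.27 after pretreatment (adjusted p = 0.0706), and adjusted p = 0.0263 with the replicate letter as a block.

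**Figure D4:**
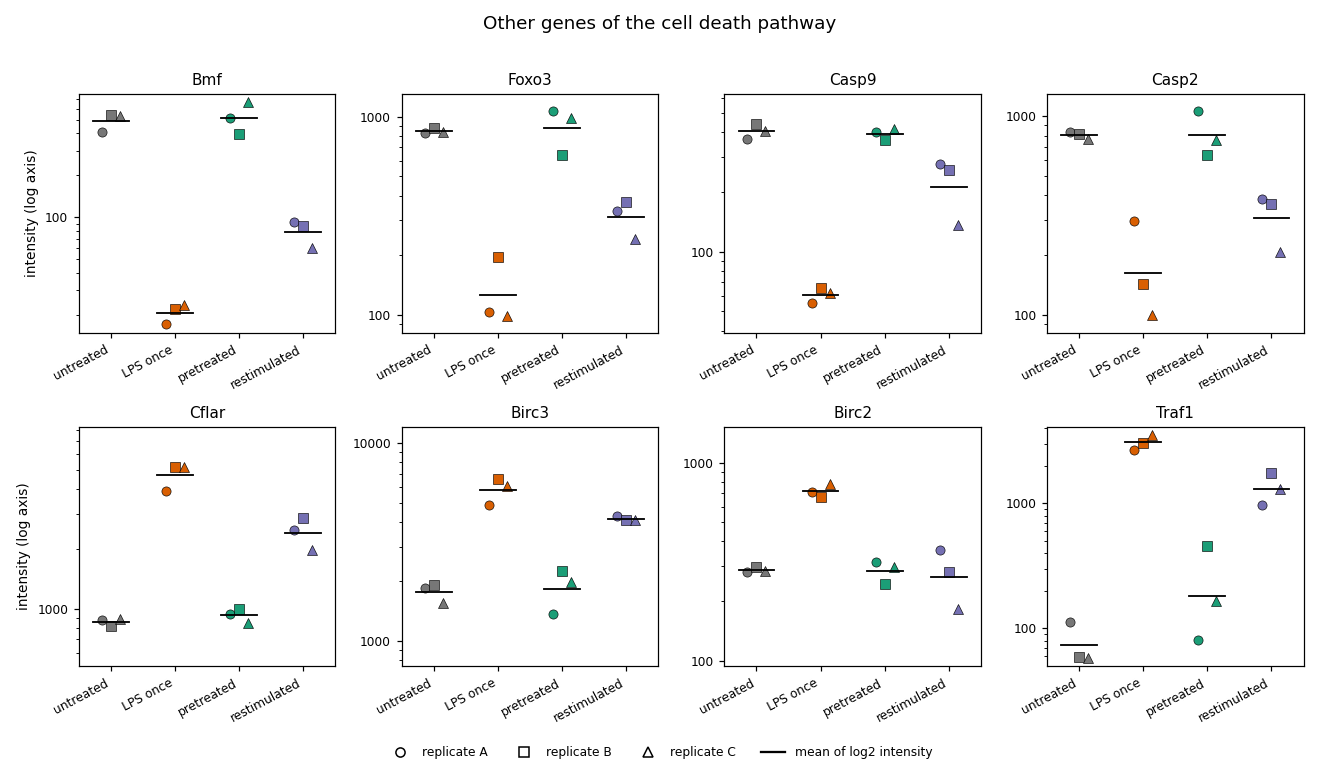
Intensity of 8 other genes of the pathway on the 12 arrays, on log axes, with shapes for the replicate letters and bars for the mean of log2 intensities. Bmf, Foxo3, Casp9 and Casp2 are lower and Cflar, Birc3 and Traf1 higher on arrays with a last LPS step, and Birc2 is high only after LPS once (672 to 783).

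Genes whose pattern was most like that of a called member were named by Pearson's r of log2 values over the 12 arrays, among 9872 genes with a mean intensity of at least 50. For Bcl2l11 these were Scap (r = 0.958), Rhob (0.941) and Gramd1b (0.929). For Pmaip1 they were Rpl7 (0.957), Smad5 (0.956) and Entpd1 (0.946). Among the members themselves the highest r was 0.707, between Bak1 and Bid, and the lowest was -0.686, between Bcl2 and Bid. All of these correlations run over 4 groups of 3 arrays that share letters, scaling and the array that stood apart, and they describe these 12 arrays.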

How the data were processed

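The deposited values were hybridization intensities on a linear scale, 1 for each of 45101 probe sets on each of 12 Affymetrix arrays (4 groups of 3). The program, background correction and scaling of the authors were not stated in any source at hand. The unit was read from the values. Genes were named from the annotation of the platform, where 34945 probe sets had 1 symbol, 932 several and 9160 none here, and 64 were controls. Symbols were updated through RefSeq (GRCm38.p6) by Entrez identifier for 34741 probe sets. Probe sets with several symbols were left out, and Bax was on none with 1 symbol.

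Intensities were taken to log2(intensity + 16), which understates the change of dim genes. A group-means model on all 12 arrays was fitted with limma 3.58.1 in R 4.3.3, moderated by eBayes, with Benjamini-Hochberg adjustment over 18193 genes. A gene was called at an adjusted p under 0.05 and at least 2-fold. The script was tested on simulated data with independent errors and equal shifts in both groups with a last LPS step. No pretreatment effect, interaction or difference in level after LPS was simulated, so recovery of these was not tested. Arrays give no read depth, and their number limits the precision. P-values measure the spread between 3 replicates that the labels call biological.

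The members and lists were chosen with earlier results of these data known, so no test over a list was made. Named were all members, the genes called in each list (up to the 4 with the largest change, or otherwise the 2 with the largest change), and the 3 genes most like each called member. The lists were read as counts and medians.

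The letters A, B and C pair the arrays: deviations from group means correlated at 0.25 to 0.656 (median 0.361) over the 18 same-letter pairs and at -0.482 to 0.0134 over the 36 pairs of different letters. The letter as a replicate block, other pseudocounts, scalings, probe set rules and filters, and leaving out each array were the alternatives.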

Additional observations from a re-analysis of the deposited data

Results flagged for a closer look

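The LPS response of Bcl2l11 differed between pretreated and naive cells in the test of the difference itself, by -2.01 on the log2 scale. The same test was passed by 7 genes of the pathway lists. The response in pretreated cells was higher by 3.86 for Sesn1, 1.62 for Casp9 and 1.31 for Bmf, whose LPS-once arrays lay below the background median. It was lower for Cdkn1a (-1.87), Birc2 (-1.38), Cflar (-1.07) and Tnfrsf1b (-1.03). These tests share all 4 groups and the restimulated C array. The value for Bcl2l11 without that array was -1.93, and those of Cflar and Tnfrsf1b fell under 2-fold without it, at -0.93 and -0.95. The call of Bcl2l11 was lost in 11 of 22 alternatives, and those of Bmf, Birc2 and Cflar were lost without some single arrays, as given above. What set the differences was not tested.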

How the results depend on the processing

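Of 22 alternatives in each comparison, the count of members called stayed at 1 in 19 for the first response, 17 for the pretreatment effect, 6 for the second response, 11 for the difference between responses and 21 for the level after LPS. In the first response it was 0 with log2(intensity + 64), quantile normalization or the same 75th percentile. In the second response it was 0 with those 3, with the median of all probe sets of a gene, with arrays of the compared groups only, and with the replicate block together with leaving out restimulated C (chosen after seeing the data). For the difference between responses it was 0 with log2(intensity + 64) and with the median of all probe sets, and for the level after LPS 2 with quantile normalization. Leaving out 1 array gave counts of 0 to 1 for pretreatment and the difference, 0 to 2 for the second response, and 1 for the others. The replicate block changed no call of a member: it gave 1 in every comparison, with Bcl2l11 at -2.31 (limma adjusted p = 0.00114) for the level after LPS. The second response of Bmf, -2.48 in its bright probe set, was 0.034 with the median of all probe sets and 0.0016 with no _x_at or _s_at probe set where another exists: these settings read its probe sets with mean intensities of 30.6 and 15.0, in the range of background. For the other changes, the cause was not tested. The share of higher genes among all called was 30.0% in the first and 34.1% in the second response, 38.7% and 51.5% with quantile normalization, and 51.1% and 57.6% with the same 75th percentile. With arrays of the compared groups only, 1 of all genes was called in the second response, against 355. A p that misses the threshold does not show that levels were alike.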
